A study of Mus musculus with 6 samples.

Results

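The genes described here are 10 listed components of the machinery that divides and fuses mitochondria, *Mff*, *Fis1*, *Mief1*, *Mief2*, *Dnm2*, *Mtfp1*, *Mfn1*, *Mfn2*, *Opa1* and *Oma1*, in mouse bone marrow–derived macrophages (BMDMs) from mice with or without a myeloid deletion of *Drp1*, whose product is the fission GTPase DRP1. They were chosen by name, with earlier results of these data known, and are 10 of the 36137 genes to which the transcripts of the dataset matched. *Dnm1l*, the gene that encodes DRP1, was left out of the list. The 10 genes carried 76 of the transcripts in the files.

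Mitochondria constantly divide and fuse. For division, cytosolic DRP1 is recruited to the outer membrane by the receptors MFF and FIS1 and by the adaptors encoded by *Mief1* and *Mief2*, and it assembles into a ring that constricts the organelle. Fusion runs the other way: the mitofusins MFN1 and MFN2 join outer membranes, and OPA1, whose long and short forms are set by proteases such as OMA1, joins inner membranes and shapes cristae. In macrophages the balance between both processes is linked to respiration, to uptake of dying cells and to the inflammatory state.

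RNA was sequenced from 3 WT and 3 Drp1 KO libraries of BMDMs. All 6 cultures were taken on day 7 and were kept for 8 hours in hypoxia with serum starvation (HSS, at 2.1% oxygen), the study's culture model of ischemia, so no library shows the resting state. The labels give 10% FBS and 10% L929 supernatant for the medium in which all 6 were grown. Drp1 KO cells came from mice in which Cre recombinase, driven by the lysozyme M promoter, acts on *Drp1* fl/fl alleles in myeloid cells. The labels call the controls WT, and by the study's methods these came from mice that carry the same Cre with unfloxed *Drp1*, so both groups hold the transgene. Marrow of 2 mice of a genotype was pooled in the study's BMDM cultures, and the labels number the libraries of a group as biological replicates. Whether each library had its own pool is not given, and p-values measure the spread between these libraries.

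Depth was 23389488 to 32231206 estimated reads per library. CPM below is a count scaled to a common library total and serves to compare 1 gene between libraries, whereas TPM also divides by transcript length and serves to compare genes. *Dnm1l* RNA itself was at 72.6 ± 2.61 CPM in WT against 61.9 ± 3.91 CPM in Drp1 KO libraries (mean ± SD of 3), with every library labelled Drp1 KO below every WT library but an adjusted p of 0.248 (edgeR), so RNA of the whole gene does not by itself show the deletion. The 7 macrophage markers summed to 13746 to 14155 CPM in WT, against 12177 to 14621 CPM in Drp1 KO libraries, most of it *Lyz2*. Of these markers 3 passed the test (edgeR), where 3.36% of all genes did. The log2 fold change was -0.52 for *Csf1r* (adjusted p = 0.0340, edgeR), -0.52 for *Mertk* (0.0236) and 1.34 for *Fcgr1* (0.000322). Over 16 other settings *Csf1r* was called in 10 and *Mertk* in 12, with adjusted p up to 0.209 and 0.118 (edgeR), and *Fcgr1* in each. The 9 neutrophil markers summed to 6.39 to 20.3 CPM in WT, against 16.4 to 43.4 CPM in Drp1 KO libraries, with *Ly6g*, their defining surface marker, at 0 in each library. All 6 neutrophil markers that could be tested had a higher mean in Drp1 KO. None passed in edgeR's fit and 3 had an unadjusted p under 0.05, where 16.4% of all genes did. In a fit with same-numbered libraries as pairs *S100a8*, *S100a9* and *Ltf* passed, where 12.0% of all genes did. Over the same 16 settings *S100a8* was called in 5, *S100a9* in 4 and *Ltf* in 2. Markers of dendritic cells (5 tested), lymphocytes (4) and stromal cells (6) summed to at most 6.06 CPM in a library, and none passed. *Flt3*, *Zbtb46* and *Col1a2* had every Drp1 KO library below every WT library, where the groups did not overlap for 21.9% of all genes. The part of these marker lists in the results below was not tested. In bulk RNA, fewer cells of a type and less RNA per cell cannot be told apart.

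Of the 10 genes, all passed the minimum of 10 counts over the 6 libraries and 0 had an adjusted p under 0.05 (edgeR), where 3.36% of the 18506 genes tested did. By unadjusted p under 0.05 there was 1, *Mff*, where 16.4% of all genes had such a p. The groups did not overlap for 3 of the 10 genes, *Mff*, *Mief2* and *Opa1*, where this was so for 21.9% of all genes and for 31.2% of those that averaged 10 CPM or more, as 9 of the 10 do. DESeq2 and limma-voom likewise called 0 of the 10, beside 5.58% and 3.37% of all genes. In a paired fit, in which same-numbered libraries form blocks, 1 of the 10 genes passed, again *Mff*, and 12.0% of all genes did. The log2 fold change of Drp1 KO relative to WT (log2FC, with its standard error SE) was above 0 for 4 genes and below 0 for 6. Its median was -0.10, beside 0.013 over all genes that averaged at least 1 CPM.

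**Figure D1:**
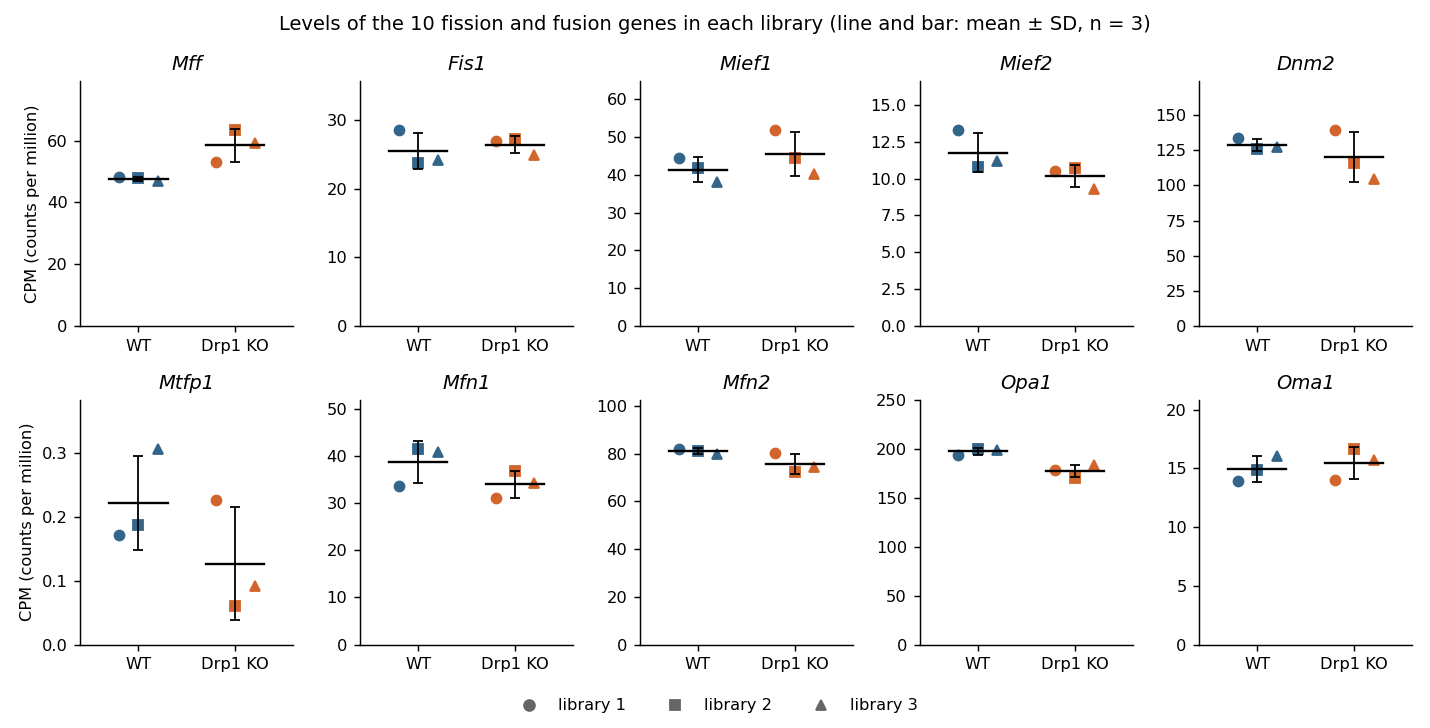
Level in CPM (y axis, starting at 0) of each of the 10 genes in the 3 WT and the 3 Drp1 KO libraries; symbols mark the library number, lines the mean and bars the SD. The groups do not overlap for *Mff*, *Mief2* and *Opa1*, and *Mtfp1* lies at or below 0.307 CPM in every library.

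Of the receptors and adaptors that bring DRP1 to the membrane, *Mff* (ENSMUSG00000026150, chromosome 1, 82702582 to 82730684 on the plus strand of GRCm39) encodes the mitochondrial fission factor, a tail-anchored receptor. It was at 48.1, 47.8 and 47.0 CPM in WT libraries 1 to 3 and at 52.9, 63.4 and 59.1 CPM in Drp1 KO libraries 1 to 3. The WT libraries lay close together, and the lowest Drp1 KO library, number 1, was still above all of them. The means were 47.6 ± 0.566 and 58.5 ± 5.27 CPM (SD, n = 3 each), and the log2FC was 0.30, with a 95% interval from 0.08 to 0.52 (adjusted p = 0.149, edgeR). In the paired fit the log2FC was 0.29 and the adjusted p 0.0405 (edgeR), and the 3 pairs differed by 0.14, 0.41 and 0.33, all in the same direction. Leaving out any 1 library kept the fold change between 0.24 and 0.35, and over 16 other settings the adjusted p ran from 0.0405 to 0.412, with the paired fit alone past the threshold. With GC correction besides the pairs the log2FC was 0.21 and that call was lost.

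*Fis1* (ENSMUSG00000019054, chromosome 5, 136982101 to 136995089, plus strand) encodes the other tail-anchored receptor. Its libraries were at 28.6, 23.8 and 24.2 CPM in WT, against 27.0, 27.3 and 25.0 CPM in Drp1 KO. The Drp1 KO values all lay inside the WT range. The log2FC was 0.05, with an interval from -0.20 to 0.30 (adjusted p = 0.904, edgeR). Its sign was not settled, since it was -0.02 without WT library 2 and -0.0016 without WT library 3, and on the TPM scale the mean was 56.9 in WT and 53.8 in Drp1 KO.

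*Mief1* and *Mief2* encode the outer-membrane adaptors that bind DRP1 and regulate its assembly. *Mief1* (ENSMUSG00000022412, chromosome 15, 80118149 to 80138322, plus strand) was at 44.4, 41.7 and 38.0 CPM in WT, against 51.8, 44.4 and 40.2 CPM in Drp1 KO. The groups overlapped, and the log2FC of 0.14 had an interval from -0.12 to 0.40 (adjusted p = 0.653, edgeR) and was 0.02 when Drp1 KO library 1 was left out. *Mief2* (ENSMUSG00000018599, chromosome 11, 60618117 to 60623778, plus strand) was at 13.3, 10.8 and 11.2 CPM in WT, against 10.5, 10.7 and 9.29 CPM in Drp1 KO. Here no library overlapped, although WT library 2 and Drp1 KO library 2 were 0.02 apart on the log2 scale. The log2FC of *Mief2* was -0.21, with an interval from -0.52 to 0.10 (adjusted p = 0.516, edgeR), and ran from -0.29 to -0.12 with a library left out.

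By the annotation an exon of *Mief2* shares 245 bases with *Flii*, a gene on the opposite strand at 401.4 to 492.5 CPM in WT, against 323.3 to 400.7 CPM in Drp1 KO libraries. The labels name a stranded kit, but it is not given whether strand was used when reads were assigned, so the values of *Mief2* are uncertain where both genes lie. *Flii* had a log2FC of -0.29 (SE 0.117, adjusted p = 0.243, edgeR). Its part in the values of *Mief2* was not tested.

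Among the other division factors, *Dnm2* (ENSMUSG00000033335, chromosome 9, 21336183 to 21419059, plus strand) encodes dynamin 2, the ubiquitous dynamin that cuts endocytic vesicles from the plasma membrane and that has been proposed to act in mitochondrial scission. It was at 133.5, 125.9 and 127.2 CPM in WT, against 139.4, 116.2 and 104.4 CPM in Drp1 KO. The Drp1 KO libraries spread on both sides of the WT range, with number 1 the highest and number 3 the lowest of the 6. On the TPM scale the groups did not overlap, at 70.9, 77.7 and 84.3 TPM in WT and 69.9, 66.4 and 62.7 TPM in Drp1 KO. The log2FC was -0.10, with an interval from -0.36 to 0.15 (adjusted p = 0.744, edgeR), and ran from -0.23 when Drp1 KO library 1 was left out to -0.0087 when library 3 was. *Mtfp1* (ENSMUSG00000004748, chromosome 11, 4041479 to 4046616, minus strand), an inner-membrane protein needed for normal fission, was near the floor of these data. It had 4, 5 and 9 counts in WT and 5, 2 and 3 counts in Drp1 KO libraries, 18 and 10 in all, where 3 counts were taken as the floor. The interval of its log2FC ran from -2.46 to 0.68 (adjusted p = 0.619, edgeR), so no difference in *Mtfp1* was detected with these few counts.

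The mitofusins, the GTPases that tether and fuse outer membranes, both had lower means in Drp1 KO without passing the test. *Mfn1* (ENSMUSG00000027668, chromosome 3, 32583599 to 32645888, plus strand) was at 33.6, 41.6 and 40.9 CPM in WT, against 31.0, 36.8 and 34.2 CPM in Drp1 KO. WT library 1 lay among the Drp1 KO libraries, while each Drp1 KO library was below the WT library of its own number. The log2FC was -0.19, with an interval from -0.45 to 0.07 (adjusted p = 0.490, edgeR). *Mfn2* (ENSMUSG00000029020, chromosome 4, 147955508 to 147989585, minus strand) was at 82.2, 81.3 and 79.8 CPM in WT, against 80.4, 72.3 and 74.5 CPM in Drp1 KO. Only Drp1 KO library 1 reached into the WT range, and the log2FC of -0.10 had an interval from -0.30 to 0.10 (adjusted p = 0.663, edgeR). In the annotation, whose *Mfn1* models reach further than those in the files, the last exon of *Mfn1* overlaps *Gnb4* on the opposite strand, which was at 4.92 to 8.31 CPM over the 6 libraries.

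At the inner membrane, *Opa1* (ENSMUSG00000038084, chromosome 16, 29398108 to 29473858, plus strand) was the gene of the list with the most counts. Its level was 193.0, 200.0 and 198.7 CPM in WT, against 177.7, 170.3 and 182.8 CPM in Drp1 KO. Every Drp1 KO library lay below every WT library, by at least 10 CPM. The means were 197.2 ± 3.71 and 176.9 ± 6.28 CPM (SD, n = 3 each), and the log2FC was -0.16, with an interval from -0.35 to 0.03 (adjusted p = 0.414, edgeR). It stayed between -0.18 and -0.12 with any 1 library left out, and the paired fit gave an adjusted p of 0.196 (edgeR). *Oma1* (ENSMUSG00000035069, chromosome 4, 103170737 to 103229065, plus strand), the stress-activated protease that cuts OPA1, was at 13.9, 14.9 and 16.1 CPM in WT, against 14.0, 16.7 and 15.7 CPM in Drp1 KO. These ranges lay nearly on top of each other. Its log2FC was 0.05, with an interval from -0.22 to 0.32 (adjusted p = 0.913, edgeR), and its sign turned when WT library 1 (-0.0017) or Drp1 KO library 2 (-0.0034) was left out. With length-scaled counts the log2FC of *Oma1* was 0.20 (SE 0.153).

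An exact permutation test of 1 gene, two-sided and with 3 libraries a group, has 0.100 as its smallest p, and *Mff*, *Mief2* and *Opa1* reached it. Apart from *Mtfp1*, the fitted ratios of the list ran from 0.864 for *Mief2* to 1.23 for *Mff*.

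**Figure D2:**
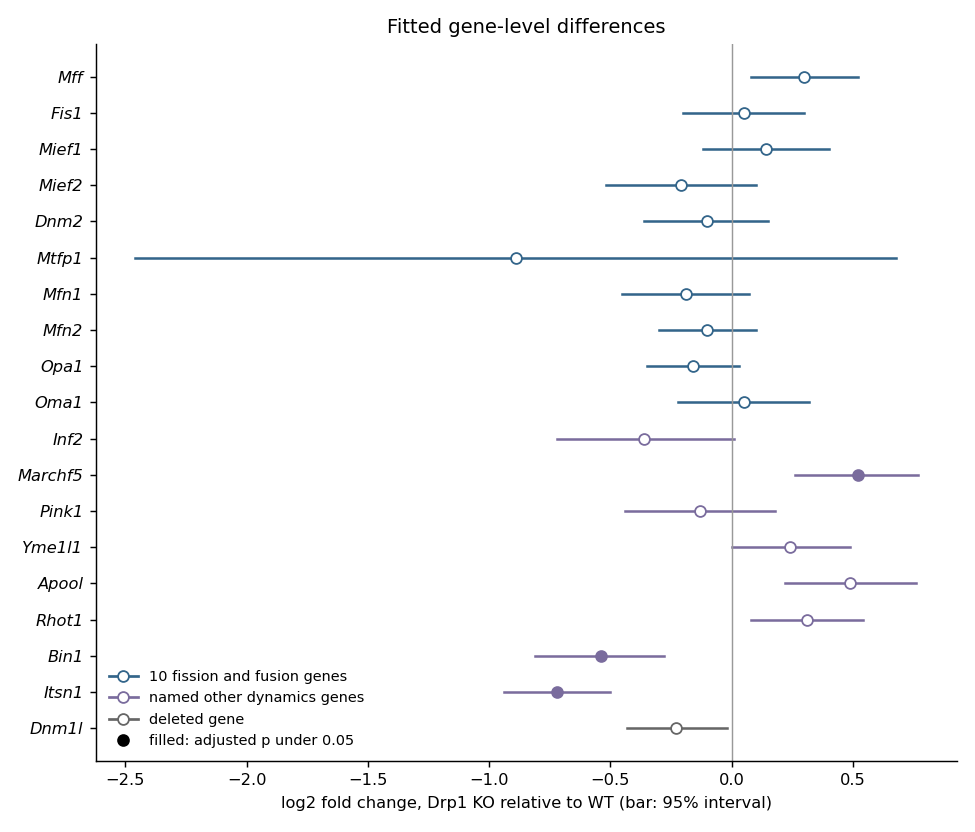
Log2FC of Drp1 KO relative to WT (x axis) with its 95% interval (bar) for the 10 genes, for named genes of 7 further mitochondrial dynamics lists and for *Dnm1l*; filled points have an adjusted p under 0.05. None of the 10 points is filled, the interval of *Mff* lies above 0, and *Marchf5*, *Bin1* and *Itsn1* are filled.

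Per length and over all transcripts, *Mff* had the highest mean of the 10 genes in both genotypes, and *Mtfp1* the lowest. On average in WT, 18.7 TPM of *Mff* lay on Mff-204 and 17.0 TPM on Mff-207, short models of 435 and 659 bases. A given count yields a higher TPM on such short models. In WT libraries the mean TPM was 86.9 ± 3.72 for *Mff*, 79.6 ± 3.59 for *Opa1*, 77.7 ± 6.71 for *Dnm2*, 66.6 ± 10.0 for *Mfn1* and 56.9 ± 4.50 for *Fis1* (SD, n = 3 each). The WT libraries of *Mff*, from 84.2 TPM, overlapped those of *Dnm2*, which reached 84.3 TPM. From *Opa1* to *Fis1*, each gene overlapped the next in that order, so these ranks are not separated by the spread between libraries. *Mfn2* followed at 36.7 ± 4.14 TPM, *Mief1* at 15.1 ± 1.46, *Oma1* at 12.7 ± 1.73, *Mief2* at 5.84 ± 0.667 and *Mtfp1* at 0.227 ± 0.0849, none overlapping its neighbours. The order of the means was the same in Drp1 KO, where *Mief1* and *Oma1* also overlapped.

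The order depends on which transcripts count. Only 18.1% of the TPM of *Mfn1* and 48.0% of that of *Mief1* lay on protein-coding transcripts, whereas the other 8 genes had at least 74.2% there. On protein-coding transcripts alone *Opa1* came first in WT at 77.4 ± 3.56 TPM, overlapping *Mff* at 73.3 ± 3.76 TPM, while in Drp1 KO *Mff* stayed first (SD, n = 3 each). *Mfn1* was then at 11.9 ± 1.76 TPM in WT and 10.2 ± 0.999 TPM in Drp1 KO, below *Mfn2* at 36.6 ± 4.25 and 31.4 ± 3.08 TPM. Its most abundant transcript by TPM over the 6 libraries, Mfn1-209, is a retained-intron model of 588 bases, at 4.97, 29.1 and 25.5 TPM in WT and 15.0, 13.0 and 28.5 TPM in Drp1 KO. In WT alone Mfn1-205 had a higher mean than its 19.8 TPM. Such short models have an effective length of only 345 to 365 bases, which raises their TPM for a given count, and this one was lowest in WT library 1.

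**Figure D3:**
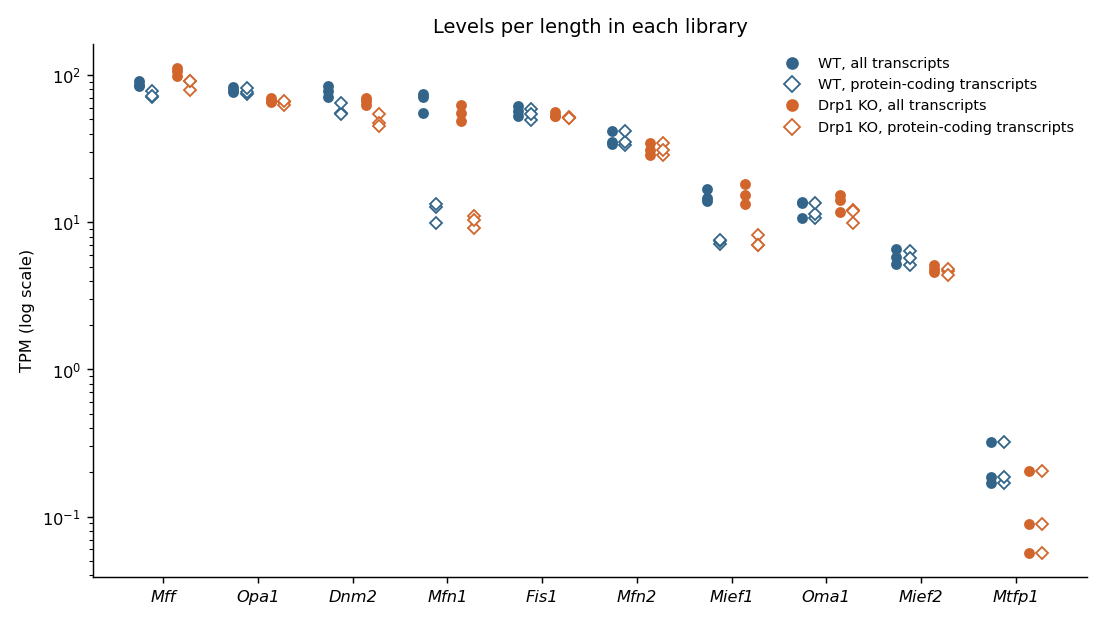
TPM (y axis, log scale) of the 10 genes in each library, ordered by the WT mean; filled circles sum all transcripts of a gene and open diamonds its protein-coding transcripts, in blue for WT and orange for Drp1 KO. Circles and diamonds part most for *Mfn1*, at 66.6 and 11.9 TPM on average in WT.

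Within a library, the balance between related members can be read as a ratio of coding TPM, which is not moved by depth. *Mff* to *Fis1*, the pair of receptors, was 1.32, 1.43 and 1.31 in WT and 1.55, 1.75 and 1.78 in Drp1 KO. *Mief1* to *Mief2*, the pair of adaptors, was 1.11, 1.46 and 1.33 in WT and 1.74, 1.48 and 1.62 in Drp1 KO. In both pairs each Drp1 KO library lay above each WT library, by a small margin for the adaptors, where *Mief2* is the gene with uncertain values beside *Flii*. Part of the coding TPM of *Mff* lay on Mff-204, a short model of 435 bases with an effective length of 213 to 229. Mff-204 was at 17.2, 20.4 and 18.6 TPM in WT and 28.9, 25.0 and 30.5 TPM in Drp1 KO. Whether the receptor ratio parts the groups without this model was not tested. No share over all genes was computed for such ratios. *Mfn1* to *Mfn2* was 0.327 ± 0.0353 in WT and 0.330 ± 0.0632 in Drp1 KO, and *Opa1* to *Oma1* was 6.58 ± 0.480 and 5.78 ± 0.741 (SD, n = 3 each). Those 2 ratios overlapped between the groups.

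Several of these genes make proteins that differ by alternative exons. *Dnm2* has a pair of mutually exclusive exons of 139 bases each, in its middle region, and 2 alternative last exons that give different carboxyl ends. The sequences below are those of *Dnm2* because its last exons differed most between the genotypes, while the 139-base pair and a 12-base exon served as sites in the same transcripts whose use overlapped between them. They are given 5′ to 3′ on the plus strand of chromosome 9 of GRCm39. In the 139-base pair capitals mark the positions where both exons differ, 44 of 139, and in the coding ends capitals mark the stop codon. The whole of the 12-base exon is in capitals.
Dnm2 upstream 139-base exon, chr9:21390195-21390333: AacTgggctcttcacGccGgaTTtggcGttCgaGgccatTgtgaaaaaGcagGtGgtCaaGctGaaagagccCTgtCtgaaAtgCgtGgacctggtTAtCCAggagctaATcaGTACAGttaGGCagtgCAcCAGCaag
Dnm2 downstream 139-base exon, chr9:21391703-21391841: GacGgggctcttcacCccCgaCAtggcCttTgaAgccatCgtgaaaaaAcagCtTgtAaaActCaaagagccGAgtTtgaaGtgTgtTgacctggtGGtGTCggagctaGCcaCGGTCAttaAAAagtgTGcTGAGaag
Dnm2 12-base exon, chr9:21401954-21401965: GGGGAGATCTTG
Dnm2 coding end in the proximal last exon, chr9:21417629-21417698: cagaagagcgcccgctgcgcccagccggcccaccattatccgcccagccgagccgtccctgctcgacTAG
Dnm2 coding end in the distal last exon, chr9:21418719-21418758: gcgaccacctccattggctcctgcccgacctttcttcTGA

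The share of *Dnm2* TPM that ended in the distal last exon was 27.8%, 35.7% and 30.2% in WT and 20.0%, 12.8% and 10.5% in Drp1 KO libraries. No library overlapped, which is so for 23.5% of the 8176 exon choices read in the same way over all genes, and the means were 31.2% ± 4.02 and 14.4% ± 4.98 (SD, n = 3 each). As this site was chosen for its difference, no test is given. The proximal last exon took 58.1%, 44.6% and 47.3% in WT and 71.5%, 64.1% and 70.5% in Drp1 KO, again without overlap. Another group of transcripts, which starts the proximal exon 3 bases further downstream, took the rest, with 18.7% ± 4.27 in WT and 16.9% ± 7.58 in Drp1 KO. The upstream 139-base exon had 53.0% ± 4.12 in WT and 56.1% ± 2.34 in Drp1 KO, and the 12-base exon 83.0% ± 4.32 and 83.7% ± 0.490 (SD, n = 3 each). Both overlapped between the genotypes.

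By the annotation the distal last exon shares 211 bases with an exon of *Tmed1* on the opposite strand, so reads of both genes may not be separable. *Tmed1* was at 4.40, 3.41 and 5.15 CPM in WT, against 5.72, 4.98 and 3.62 CPM in Drp1 KO, with a log2FC of 0.14 (SE 0.226, adjusted p = 0.851, edgeR). Its part in the share was not tested.

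At the level of single transcripts, 67 of the 76 could be tested, and 0 had an adjusted p under 0.05 (edgeR), where 0.332% of the 62020 transcripts tested did. An unadjusted p under 0.05 was found for 10 of them, and 10.3% of all transcripts had one. The groups did not overlap for 12 of the 67, and for 17.3% of all transcripts. The share of a transcript within its gene was tested for 66, with 0 called and 8 at an unadjusted p under 0.05, beside 0.124% and 9.49% of the 54699 shares tested. In simulated counts the transcript test recovered 27.5% and the share test 3% of 4-fold changes. With so few recovered, 0 calls do not show that transcripts or shares were unchanged.

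The 3 transcripts with the smallest p among those of at least 100 counts on average were picked after their values were seen. Dnm2-203, which ends in the distal exon, was at 12.9, 14.5 and 13.1 TPM in WT and 6.43, 4.28 and 3.39 TPM in Drp1 KO. Its log2FC was -1.44 (SE 0.259, adjusted p = 0.0929, edgeR), and without Drp1 KO library 1 it was -1.76 with an adjusted p of 0.0373. Dnm2-205, which ends in the proximal exon and has the same 139-base and 12-base exons as Dnm2-203, was at 8.01, 8.75 and 12.1 TPM in WT and 18.9, 16.3 and 17.8 TPM in Drp1 KO. Both differed between the genotypes without overlap and in opposite directions while the whole gene differed by -0.10 on the log2 scale. The log2FC of Dnm2-205 was 0.97 (SE 0.162, adjusted p = 0.0763, edgeR). The model of Dnm2-205 holds 2610 coding bases and 3 further bases, so reads beyond the stop codon cannot be given to it.

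Mfn2-201 was the remaining one of the 3. It carries an additional noncoding exon of 83 bases near its start (chromosome 4, 147987385 to 147987467, minus strand) and has a coding sequence of the same length, 2271 bases, as Mfn2-204, the most abundant *Mfn2* transcript. Mfn2-201 was at 7.63, 7.20 and 5.69 TPM in WT and 2.68, 2.45 and 2.02 TPM in Drp1 KO. Every Drp1 KO library had less than the lowest WT library, and the log2FC was -1.45 (SE 0.216, adjusted p = 0.0573, edgeR). Mfn2-204 was at 14.2, 14.9 and 16.3 TPM in WT and 17.7, 17.1 and 17.8 TPM in Drp1 KO, a log2FC of 0.29 (SE 0.0945, adjusted p = 0.342, edgeR). The 83-base exon was thus in 22.7%, 20.7% and 13.7% of the *Mfn2* TPM at that site in WT and in 7.74%, 8.58% and 6.49% in Drp1 KO. With edgeR's filterByExpr in place of the count minimum, the adjusted p of Mfn2-201 was 0.0439, and in the paired fit it was 0.115.

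**Figure D4:**
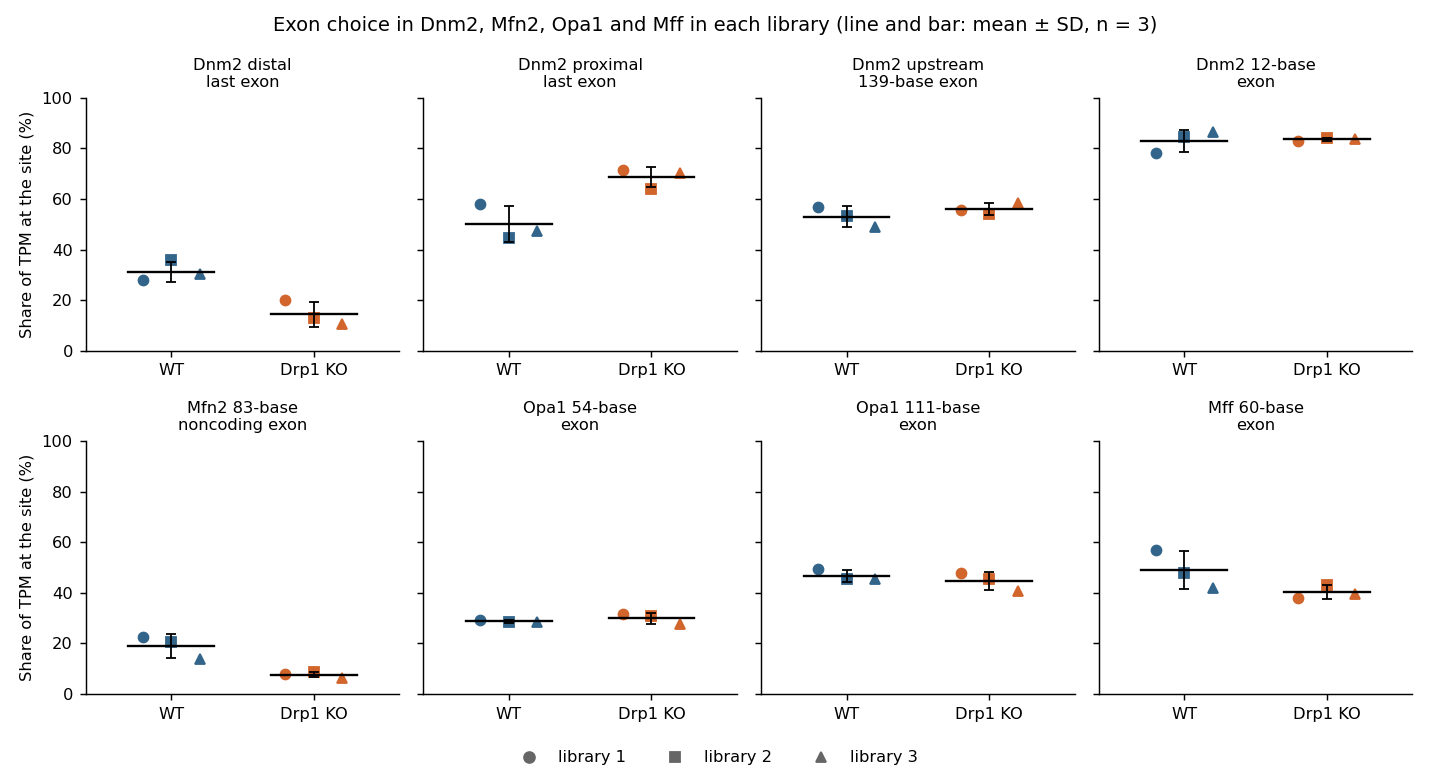
Share of TPM (y axis, 0 to 100%) of transcripts that use the named exon, among those that span its site, in each library; symbols mark the library number, lines the mean and bars the SD. The distal and proximal last exons of *Dnm2* and the 83-base exon of *Mfn2* do not overlap between genotypes, whereas the other 5 exons do.

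*Opa1* is spliced in its amino-terminal region, which changes where the protein can be cut. Its 2 exons with enough of both forms are given on the plus strand of chromosome 16 of GRCm39 because their use bears on the cleavable forms of the protein.
Opa1 54-base exon, chr16:29407641-29407694: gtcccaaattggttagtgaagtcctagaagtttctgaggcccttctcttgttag
Opa1 111-base exon, chr16:29416404-29416514: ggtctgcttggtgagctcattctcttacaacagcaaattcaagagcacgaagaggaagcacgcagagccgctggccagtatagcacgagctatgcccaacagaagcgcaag

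The 54-base exon was in 29.3%, 28.6% and 28.3% of the *Opa1* TPM at its site in WT and in 31.5%, 30.8% and 27.5% in Drp1 KO. The 111-base exon was in 49.5%, 45.5% and 45.4% in WT and in 48.0%, 45.5% and 40.9% in Drp1 KO. Both ranges overlapped between the genotypes. The means differed by 1.18 points for the 54-base exon (SD 0.488 in WT, 2.14 in Drp1 KO). For the 111-base exon they differed by -2.03 points (SD 2.36 and 3.59). The overlap does not show that the mix of these forms was equal. The most abundant transcript over the 6 libraries, Opa1-206, which in WT was level with Opa1-207 at 27.6 and 27.8 TPM on average, had a log2FC of -0.03 (SE 0.123, adjusted p = 0.982, edgeR), and turned to 0.02 when WT library 3, or 0.05 when Drp1 KO library 1, was left out. Opa1-207 was at 28.3, 27.5 and 27.5 TPM in WT and 23.5, 18.5 and 18.1 TPM in Drp1 KO, with a log2FC of -0.39 (SE 0.156, adjusted p = 0.458, edgeR).

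*Mff* has several alternative exons in its middle region. A 60-base coding exon was in 57.0%, 47.9% and 41.9% of the TPM at its site in WT and in 37.8%, 43.2% and 39.4% in Drp1 KO, which overlapped. A rarer noncoding exon of 172 bases was in 4.49% ± 0.968 in WT and in 6.15% ± 0.580 in Drp1 KO (SD, n = 3 each), without overlap. The most abundant transcript, Mff-204, is a model of 435 bases with no noncoding part, at 17.2, 20.4 and 18.6 TPM in WT and 28.9, 25.0 and 30.5 TPM in Drp1 KO. Its groups did not overlap, and its log2FC was 0.68 (SE 0.227, adjusted p = 0.355, edgeR). Mff-203 and Mff-205 were at 0 counts in every WT library, and had 2.1, 10.4 and 23.2 and 5.5, 5.6 and 1.3 estimated counts in Drp1 KO libraries, of which 2 lay under the floor of 3. Mff-203 and Mff-204 have different last exons after the same splice site, and Mff-203 took 1.72%, 7.16% and 12.6% of their joint TPM in Drp1 KO and none in WT, a choice that rests on these few counts. Over the 5 genes in which a site could be scored, 21 exon choices were read and 6 did not overlap between the genotypes, some of them alternatives at 1 site, beside the 23.5% over all genes. No share of these reads came from a count of molecules, since short reads are divided among transcripts by a model, and the files give no measure of that uncertainty.

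The most abundant transcripts of the other genes, over the 6 libraries, did not pass the test. Fis1-201 had a log2FC of 0.08 (adjusted p = 0.943), Mief2-201 had -0.22 (0.775) and Mtfp1-201 had -0.83 (0.862, edgeR). With a library left out these ran from 0.02 to 0.16, from -0.29 to -0.11 and from -1.49 to -0.49. Mief1-201, at 4.53 ± 0.191 TPM in WT and 5.57 ± 0.480 TPM in Drp1 KO (SD, n = 3 each), had 0.38 (0.433, edgeR), with no overlap between the groups. Oma1-201 had 0.02 (0.988, edgeR), and turned to -0.01 or -0.00089 when WT library 1 or 2, and to -0.02 when Drp1 KO library 2, was left out. Mfn1-209 had 0.06 (0.992, edgeR), and turned to -0.38 when WT library 1, or -0.32 when Drp1 KO library 3, was left out.

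Beyond the 10 genes, 60 other genes of mitochondrial dynamics in 7 lists were read in the same fit. Of these, 3 had an adjusted p under 0.05 (edgeR), 1 higher and 2 lower in Drp1 KO, where 2.29% and 1.06% of all genes were higher and lower. The paired fit called 10 of the 60, 4 higher and 6 lower, beside 12.0% of all genes, 6.73% higher and 5.22% lower. The median log2FC of the 60 genes was -0.01.

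The gene that rose was *Marchf5* (chromosome 19, 37184461 to 37201855), a ubiquitin ligase of the outer membrane that acts on DRP1 and mitofusins. It was at 79.8, 66.3 and 65.2 CPM in WT, against 113.2, 94.9 and 94.2 CPM in Drp1 KO. All Drp1 KO libraries were above all WT libraries, and the 3 same-numbered pairs differed by 0.50, 0.52 and 0.53 on the log2 scale. The log2FC was 0.52 (SE 0.116, adjusted p = 0.0408, edgeR). The call was lost without WT library 2 (adjusted p = 0.230, edgeR), WT library 3 (0.217), or Drp1 KO libraries 1 (0.0795), 2 (0.0933) or 3 (0.0616), and with RLE normalization (0.0517) or length-scaled counts (0.0617). Over these settings the log2FC stayed between 0.41 and 0.57. The call was kept in the paired fit. In the unpaired fit none of the other 14 regulators of DRP1 protein, which include calcineurin subunits, kinases and SUMO proteases, passed. The kinase gene *Pim1* passed in the paired fit (adjusted p = 0.0101, edgeR), and *Rock1* with GC correction besides the pairs (0.0113).

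Both genes that fell belong to the endocytic partners of dynamin 2. *Itsn1* (chromosome 16, 91526169 to 91717485), a scaffold that recruits dynamin to clathrin-coated pits, was at 135.2, 147.1 and 150.3 CPM in WT, against 93.8, 78.8 and 90.3 CPM in Drp1 KO. The gap between the groups was wider than the spread within either, with a log2FC of -0.72 (SE 0.0997, adjusted p = 0.00396, edgeR). This call held in each of the 16 other settings. *Bin1* (chromosome 18, 32509621 to 32571547), a membrane-bending protein that binds dynamin, was at 90.3, 77.4 and 74.7 CPM in WT, against 62.4, 54.5 and 49.3 CPM in Drp1 KO. Its log2FC was -0.54 (SE 0.117, adjusted p = 0.0342, edgeR). The call of *Bin1* was lost when any WT library (0.0616, 0.119 and 0.0789 for numbers 1 to 3) was left out, likewise for Drp1 KO numbers 2 (0.139) and 3 (0.107), and with length-scaled counts (0.0586), while its log2FC stayed between -0.61 and -0.46.

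All 6 genes of that endocytic list had fold changes below 0, with a median of -0.31 on the log2 scale. Beside it stands 0.013 over the genes past the CPM minimum named above for that median. The 2 calls among them became 4 in the paired fit, which added *Cltc*, the clathrin heavy chain, and *Pacsin2*, another membrane-bending partner, where 5.22% of all genes were called lower in that fit. *Cltc* was at 1605, 1508 and 1629 CPM in WT, against 1286, 1218 and 1241 CPM in Drp1 KO, with no overlap and a log2FC of -0.34 (adjusted p = 0.0857, edgeR, and 0.00967 paired), and it was called in 6 of 16 other settings, DESeq2 among them. *Pacsin2* had -0.29 (adjusted p = 0.280, edgeR, and 0.0346 paired). *Dnm2* itself, listed with the 10 genes, differed by -0.10.

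In the remaining lists no gene passed in the unpaired fit of edgeR, and the member with the smallest p is given for each. *Apool*, a subunit of the MICOS complex at cristae junctions, was at 13.8, 16.1 and 16.2 CPM in WT, against 19.6, 21.8 and 23.4 CPM in Drp1 KO. Its groups did not overlap, and the log2FC was 0.49 (SE 0.122, adjusted p = 0.0635, edgeR, 0.00614 paired, and 0.0245 with DESeq2). *Rhot1*, the outer-membrane GTPase that couples mitochondria to motors, had 0.31 (adjusted p = 0.147, edgeR, and 0.0237 paired), a call that was lost with GC correction besides the pairs (0.0657). *Inf2*, a formin that drives actin-based constriction before DRP1 acts, had -0.36 (adjusted p = 0.311, edgeR), and -0.47 to -0.21 with a library left out. *Yme1l1*, the inner-membrane protease that cuts OPA1 besides OMA1, had 0.24 (adjusted p = 0.297, edgeR) and 0.09 with GC correction. *Pink1*, the kinase that marks damaged mitochondria and their mitofusins, had -0.13 (adjusted p = 0.732, edgeR), and -0.29 to -0.03 with a library left out. The other genes past the threshold only in the paired fit, named after their values were seen, were *Pim1* with a log2FC of 0.39, *Immt* with -0.25 and *Trak1* with -0.25, of which *Trak1* was not called with GC correction besides the pairs. With a library left out, the log2FC of *Pim1* ran from 0.06 to 0.63.

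The pattern of *Mff* over the 6 libraries was closest to that of *Slc35a3*, *Tbpl1* and *Ndufaf4* among 7953 genes that averaged 10 CPM or more. As a description, Pearson's r of log2 CPM was 0.995, 0.992 and 0.991. The 6 points share their libraries, their scaling and the split by genotype, and these genes had log2FCs of 0.24, 0.51 and 0.58.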

How the data were processed

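Poly(A) RNA of 3 WT and 3 Drp1 KO libraries was analysed. The members and the gene lists were chosen with earlier results of these data known. Per the submitters' processing notes the authors used kallisto 0.46.1 on GRCm39 transcripts and DESeq2 1.44.0; they deposited, for each transcript of each library, an estimated count, which is not whole and not scaled between libraries, and a TPM. The labels state 10% L929 supernatant and 2.1% oxygen, and the paper's methods give other values for both. For 17986 transcripts at least 1 library lists an effective length above the length itself.

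Of 116873 transcripts, 99.4% matched the GENCODE annotation of GRCm39 by identifier; 0.542% to 0.575% of a library's counts lay on the others and were left out. The annotation is a later release: 26 of the 76 transcripts of the 10 genes and 30180 of 116159 in all have another length there than in the files, so gene ends, exon overlaps and exon choices follow the annotation's models. Estimated counts were summed per gene and rounded. Genes with at least 10 counts in all were tested with edgeR 4.0.16 (TMM, quasi-likelihood, Benjamini-Hochberg over 18506 genes, R 4.3.3), and transcripts likewise. Standard errors are the fold change over the square root of F. A level of 3 counts, 0.0931 to 0.128 CPM, was taken as the floor and covers counting error only. Exon shares are TPM of transcripts with the exon over TPM of all that span the site, where both had a mean of at least 1 TPM.

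In simulated counts, the gene test recovered 83.5% of 200 genes changed 2-fold among 18506, with 7 false calls. The changed genes were drawn only from those above a minimum mean count, so recovery among genes with fewer counts is not known. The transcript test recovered 27.5% of 200 transcripts changed 4-fold among 62020, with 5 false calls. The changed transcripts were drawn only from those above a minimum mean count that made up the smaller part of their gene's counts. The planned test of transcript usage, diffSpliceDGE, made 75 false calls of 128 in simulation. It was replaced by a quasi-likelihood test with the gene's count as offset. That test recovered 3% of 4-fold changes and made 0 false calls among transcripts of unchanged genes.

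The groups share replicate numbers. Deviations from the group means correlated at 0.51, 0.204 and 0.298 between same-numbered libraries over 12248 genes, each over 0.1, and on this ground alone, as no label states it, equal numbers were treated as pairs. Libraries with different numbers had -0.443 to 0.326. Named genes were the 10 members, each other listed gene with an adjusted p under 0.05 or else the smallest p of its list, each member's most abundant transcript, and the 3 genes most like the member with the smallest p. Alternatives were DESeq2 1.42.0, limma-voom 3.58.1, RLE, library size only, filterByExpr, no filter beyond 1 count, length-scaled counts, GC correction, the replicate block, and each library left out.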

Additional observations from a re-analysis of the deposited data

How the results depend on the processing

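Over 16 gene-level and 9 transcript-level alternatives, 35 fold changes were recomputed, giving 442 values, of which 407 kept their direction and their side of the threshold. With the replicate block, which pairs libraries of the same number, 1 of the 10 genes was called instead of 0, and 0 was the count in every other setting, of which filterByExpr did not test *Mtfp1*. The block changed no other call among the 10 genes and their transcripts. Of the 60 other dynamics genes, 3 were called (1 higher, 2 lower). With the block there were 10 (4 higher, 6 lower), with the block and GC correction 10 (3 higher, 7 lower) and with DESeq2 5 (2 higher), beside 12.0%, 10.8% and 5.58% of all genes. With length-scaled counts the count was 1 (0 higher, 1 lower; 2.49% of all genes), with RLE normalization 0 were higher and with no filter beyond 1 count 2 were. Leaving out a library gave 1 to 3 (0 to 1 higher, 1 to 2 lower; at most 4.96% of all genes), and 0 of the 10 genes. With filterByExpr 1 member transcript and 1 transcript share were called, as fewer transcripts were tested, and leaving out a library gave 0 to 1 transcripts and 0 shares. The cause of the other differences was not tested. With the replicate block and GC correction *Dnm1l* had a log2 fold change of -0.35 and an adjusted p of 0.0117 (edgeR).

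With GC correction the log2 fold change of *Fis1* became 0.11, of *Dnm2* -0.05, of *Mfn2* -0.06, of *Pink1* -0.08 and of *Yme1l1* 0.09. Fold changes near 0 turned with a library left out: their ranges were -0.02 to 0.13 for *Fis1*, -0.0034 to 0.10 for *Oma1*, -0.38 to 0.46 for Mfn1-209, -0.14 to 0.05 for Opa1-206 and -0.02 to 0.09 for Oma1-201. Ranks by level depended on the scale. With CPM in place of TPM 3 of the 10 genes kept their rank in WT, and on protein-coding transcripts 3 did. The level of *Mfn1* in WT was then 11.9 TPM in place of 66.6. Depth limits *Mtfp1*, with at most 9 counts in a library. Differences as small as those of the other 9 genes were not covered by the simulation.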
